A study of Homo sapiens with 6 samples.

Results

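The SR splicing factors examined here are 10 genes, SRSF1, SRSF2, SRSF3, SRSF4, SRSF5, SRSF6, SRSF7, SRSF9, TRA2A and TRA2B, chosen by name from the 62492 genes that were measured. They were chosen, like the gene lists set beside them below, with earlier results of these data known. Their estimated counts and transcript levels were compared in HCT116 cells, an established human colorectal carcinoma line, after transfection of 20 nM siRNA with RNAiMAX. The control siRNA (siControl) was used on the unmodified line, and siNONO, the siRNA that lowers NONO, on the same line, with 3 libraries in each group. A Set number of 1, 2 or 3 on the labels ties each siControl library to a siNONO library, and the wording of the series calls them biological replicates. All libraries were made from poly(A) RNA with a stranded kit, so nuclear RNA without a poly(A) tail was not measured. A single siNONO duplex was used and the harvest time is not given for these libraries, so lower NONO and any other action of that duplex cannot be told apart.

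SR proteins carry an RNA recognition motif and a tail rich in arginine and serine (the RS domain), and they bind exonic enhancers to recruit the spliceosome to nearby splice sites. SRPK and CLK kinases phosphorylate the tail, which sets how the proteins move between nuclear speckles, sites of transcription and the cytoplasm. Many SR genes hold a poison exon, a cassette exon with an early stop codon, and inclusion of this exon sends the transcript to nonsense-mediated decay (NMD), by which SR proteins limit their own level. NONO belongs to the DBHS family of RNA-binding proteins of the paraspeckle and has itself been linked to splicing.

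The genes lie on the following stretches of GRCh37, by the GENCODE version 44 annotation mapped to that build. SRSF1 (ENSG00000136450) is at chr17:56078280-56084707 and SRSF2 (ENSG00000161547) at chr17:74730197-74733415, both on the minus strand. SRSF3 (ENSG00000112081) is at chr6:36562130-36573377 on the plus strand, and SRSF4 (ENSG00000116350) at chr1:29474255-29508412 on the minus strand. SRSF5 (ENSG00000100650) is at chr14:70193617-70238722 and SRSF6 (ENSG00000124193) at chr20:42086533-42094686, both on the plus strand. SRSF7 (ENSG00000115875) is at chr2:38970741-38978636 and SRSF9 (ENSG00000111786) at chr12:120899475-120933749, both on the minus strand. TRA2A (ENSG00000164548) is at chr7:23544399-23571660 and TRA2B (ENSG00000136527) at chr3:185632346-185655891, also on the minus strand.

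Annotated poison exons were found in several of these genes, and 5 are shown because reads from transcripts with and without such an exon enter the same gene count. They were taken as exons of annotated NMD transcripts that overlap no exon of a protein-coding transcript of the gene and that hold the stop codon of the NMD transcript. The poison exon of SRSF3 has 456 bases (chr6:36567598-36568053), that of SRSF4 175 bases (chr1:29492402-29492576), that of SRSF6 268 bases (chr20:42087793-42088060), that of SRSF7 449 bases (chr2:38976040-38976488) and that of TRA2B 276 bases (chr3:185649365-185649640). Each sequence is the part of the exon from its first base to the stop codon, on the strand of the gene and read from GRCh37, with the stop codon in capitals.
SRSF3: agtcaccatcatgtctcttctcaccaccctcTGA
SRSF4: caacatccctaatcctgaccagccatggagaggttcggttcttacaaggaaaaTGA
SRSF6: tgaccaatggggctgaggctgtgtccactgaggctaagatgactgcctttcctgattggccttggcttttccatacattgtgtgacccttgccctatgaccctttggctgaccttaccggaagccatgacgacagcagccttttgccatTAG
SRSF7: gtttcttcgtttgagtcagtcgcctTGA
TRA2B: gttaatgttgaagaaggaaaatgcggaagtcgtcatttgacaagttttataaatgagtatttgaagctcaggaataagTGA
The coding part before the stop ran from 25 bases in SRSF7 to 149 bases in SRSF6, and the stop codon was TGA in SRSF3, SRSF4, SRSF7 and TRA2B and TAG in SRSF6. By the same rule SRSF9 had an exon of 90 bases with a TAG after 8 coding bases, and no such exon was found for SRSF1, SRSF2, SRSF5 or TRA2A. SRSF3 and SRSF7 had further annotated exons of this kind, which are not printed.

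Library depth and the targeted gene were examined first. The estimated counts summed to 32659002, 27491389 and 21765393 in the siControl libraries of Sets 1, 2 and 3, and to 28715263, 28260060 and 27946591 in the siNONO libraries. The libraries of Set 3 stood apart from the others of their group, with a chi-square per degree of freedom over genes of 5.86 and 5.25 against Sets 1 and 2 in siControl and of 9.86 and 9.03 in siNONO, where Sets 1 and 2 gave 3.00 and 2.82. Levels are given as CPM, the count scaled to the library's size with edgeR's TMM factors and not corrected for length. NONO was at 496, 495 and 516 CPM in siControl and at 89.5, 95.5 and 100.4 CPM in siNONO in Sets 1, 2 and 3. Its level in siNONO was 18.9% of siControl (log2 fold change -2.40, SE 0.0337, Benjamini-Hochberg adjusted p = 2.47e-13 by the quasi-likelihood test of edgeR), so the labels match the targeted gene in all 6 libraries.

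Knockdown of NONO was accompanied by lower levels of most SR factor genes, each by a modest amount. All 10 genes passed the filter on low counts. With calls made at an adjusted p of 0.05 or less in edgeR, with the Set as a block, 8 of them fell, SRSF9 rose and SRSF5 was not called. The genes that fell were SRSF1, SRSF2, SRSF3, SRSF4, SRSF6, SRSF7, TRA2A and TRA2B, which were also called lower without either library of Set 3, and their siNONO levels ran from 76.6% of siControl for SRSF2 to 88.1% for SRSF6. The background of this comparison was high, since 46.6% of all 17000 genes tested were called, 23.4% lower and 23.2% higher. Among the 2496 genes at least as abundant as TRA2A, the least abundant of the 10 by average log2 CPM, 38.3% were called lower. The median log2 fold change of the 10 genes was -0.24, against -0.0048 for all genes tested and -0.01 for those 2496 genes. For each of the 8 genes every siNONO library lay below every siControl library in CPM, which held for 24% of all genes tested. In such bulk libraries, less RNA of a gene in every cell and fewer cells that express it cannot be told apart.

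**Figure D1:**
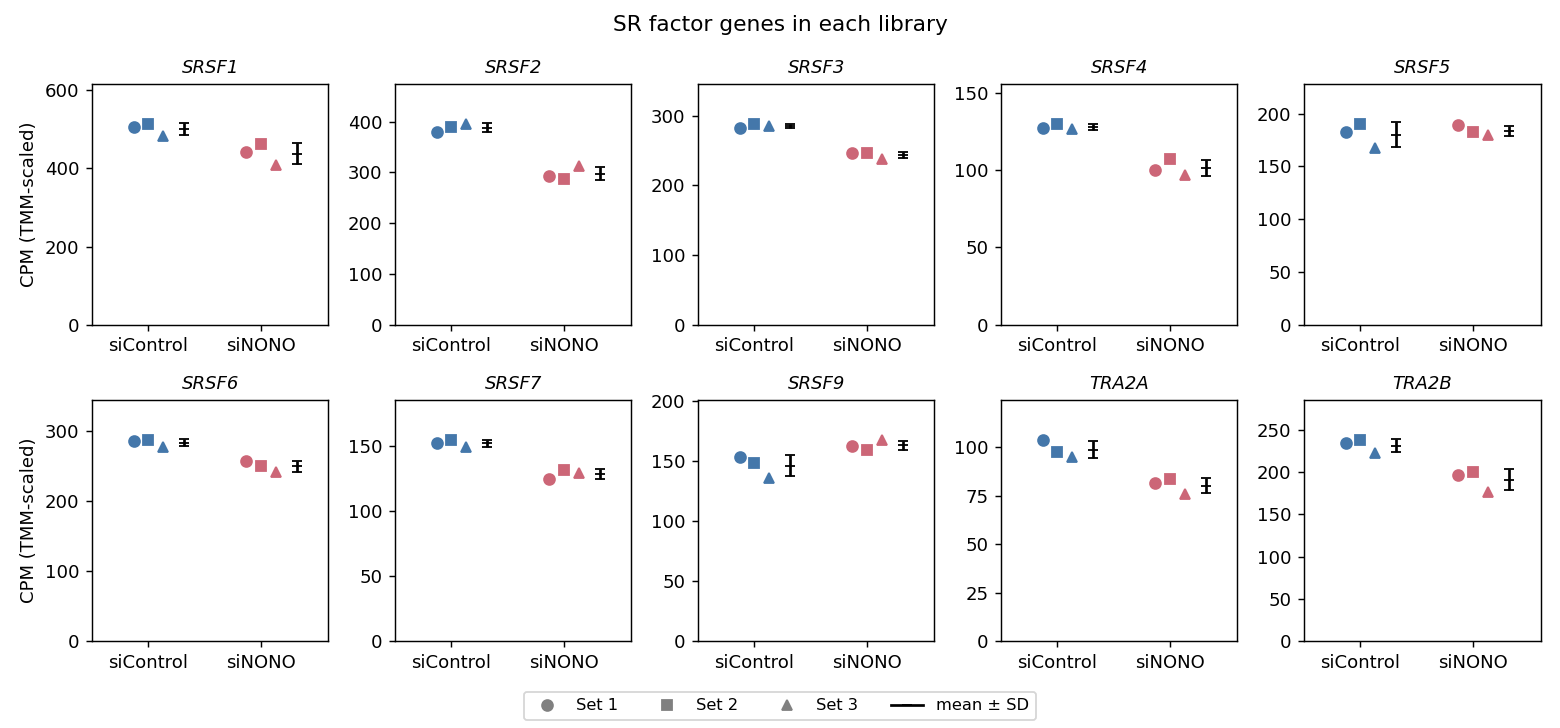
CPM (TMM-scaled, vertical axes from 0) of the 10 SR factor genes in each siControl and siNONO library, with the Set given by the symbol and the mean ± SD (n = 3) in black. The siNONO libraries lie below the siControl libraries for 8 genes, above them for SRSF9 and among them for SRSF5.

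SRSF2, an SR protein that stays mainly in the nucleus and activates exons through varied enhancer sequences, had the lowest fitted log2 fold change of the 10, with an interval that overlapped those of SRSF4, TRA2A and TRA2B. Without the siControl or the siNONO library of Set 2 it stood at -0.34 and -0.35, and SRSF4 at -0.35 and -0.36. It was at 379, 389.8 and 396 CPM in siControl and at 294, 287 and 312 CPM in siNONO in Sets 1, 2 and 3, or 388 ± 8.42 against 298 ± 13.1 CPM (SD, n = 3 per group). The groups stood well apart, with the highest siNONO library below the lowest siControl library. The log2 fold change was -0.38 (SE 0.0307, 95% interval -0.45 to -0.32, adjusted p = 6.00e-07, edgeR), with -0.37, -0.44 and -0.34 in the single Sets. SRSF2 shares its locus with MFSD11 on the opposite strand, over 1469 bases. MFSD11, a gene of the transporter superfamily, was at 17.5 TPM in siControl and 14.7 TPM in siNONO (a level scaled to transcript length and library size), far under the 325 and 236 TPM of SRSF2, and was called lower as well (log2 fold change -0.28, adjusted p = 0.00267, edgeR). The strand setting of the counting is not given in the sources used here, so it is not known how reads from the shared stretch were divided.

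SRSF4, SRSF5 and SRSF6 form a subgroup of larger SR proteins with a pair of RNA recognition motifs and long RS domains, and they did not move alike. SRSF4 was at 127, 129.8 and 127 CPM in siControl and at 99.9, 107 and 96.9 CPM in siNONO. Its siControl libraries were nearly the same and all siNONO libraries were lower, with a log2 fold change of -0.34 (SE 0.0346, 95% interval -0.41 to -0.26, adjusted p = 5.38e-06, edgeR). SRSF6 was at 286, 287 and 278 CPM in siControl and at 257, 251 and 242 CPM in siNONO. This is a smaller drop, without overlap between the groups and of similar size in each Set (log2 fold change -0.18, SE 0.0293, 95% interval -0.25 to -0.12, adjusted p = 0.000227, edgeR). SRSF5 was at 183, 190.3 and 167 CPM in siControl and at 189, 183 and 179.8 CPM in siNONO. The groups of SRSF5 overlapped, and the single Sets gave 0.05, -0.06 and 0.10 on the log2 scale. Its fitted log2 fold change of 0.03 had a 95% interval from -0.05 to 0.11 (adjusted p = 0.520, edgeR, and a log2 fold change of -0.08 on the TPM scale), an interval that lies wholly above those of SRSF4 and SRSF6, although the difference between the genes was not tested.

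SRSF1, the founding member of the family, and SRSF9, its close relative with the same domain order and a short RS domain, moved in opposite directions. SRSF1 was at 506, 514 and 482 CPM in siControl and at 442, 462 and 409 CPM in siNONO. In each Set the siNONO library was lower, and the siNONO library of Set 2 still lay below the lowest siControl library, that of Set 3. The log2 fold change of SRSF1 was -0.20 (SE 0.0291, 95% interval -0.26 to -0.13, adjusted p = 0.000129, edgeR). SRSF9 was at 153, 149 and 136 CPM in siControl and at 163, 159.6 and 168 CPM in siNONO. The groups did not overlap in CPM, and the step was largest in Set 3, whose siControl library was both the lowest for SRSF9 and the least deep of the 6. SRSF9 rose by 0.16 on the log2 scale (SE 0.0409, 95% interval 0.07 to 0.25, adjusted p = 0.00646, edgeR), with 0.09, 0.10 and 0.30 in Sets 1, 2 and 3. Without the siControl library of Set 3 the value was 0.10, and without the siNONO library of Set 3 it was 0.09, with adjusted p-values of 0.0188 and 0.0169 by the same test. In TPM the groups of SRSF9 overlapped, at 223 ± 12.6 in siControl and 233 ± 6.91 in siNONO (SD, n = 3), and the rise was not called there (log2 fold change 0.07, adjusted p = 0.305, limma on log2(TPM + 1)).

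The annotation places other genes over both loci. SRSF9 overlaps the lncRNA NRAV on the same strand over 7868 bases and DYNLL1 and GATC on the opposite strand. NRAV fell by 0.49 on the log2 scale (adjusted p = 0.000297, edgeR), DYNLL1, which encodes a dynein light chain, rose by 0.14 (adjusted p = 0.00396) and GATC was not called (log2 fold change 0.01, adjusted p = 0.855). DYNLL1 was the most abundant of them, at 343 TPM in siControl and 357 TPM in siNONO, above the level of SRSF9. SRSF1 shares 6328 bases with an unnamed protein-coding gene of the same strand, ENSG00000266086, which was at 23.8 TPM in siControl and rose by 0.19 (adjusted p = 0.00987, edgeR). SRSF1, SRSF2, SRSF6 and SRSF9 had fractional counts in all 6 libraries, so RSEM divided some of their reads with other genes, while the counts of the other 6 members were whole in every library within 0.001. What part these overlaps have in the changes was not tested.

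SRSF3, the smallest SR protein, and SRSF7, its nearest relative, which adds a zinc knuckle, couple splicing to 3' end choice and to mRNA export through NXF1. SRSF3 was at 283, 288 and 285 CPM in siControl and at 246, 247 and 238 CPM in siNONO, with little spread within either group. Its log2 fold change was -0.23 (SE 0.0295, 95% interval -0.29 to -0.16, adjusted p = 4.14e-05, edgeR). SRSF7 was at 152, 154 and 149 CPM in siControl and at 124, 131 and 129 CPM in siNONO, again with separate groups. It fell by 0.24 on the log2 scale (SE 0.0330, 95% interval -0.32 to -0.17, adjusted p = 5.82e-05, edgeR). The log2 ratio of SRSF3 to SRSF7 changed by 0.09, 0.01 and -0.05 in Sets 1, 2 and 3, with no common direction.

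TRA2A and TRA2B are the human transformer-2 proteins, with an RS domain on each side of a single RNA recognition motif, and both bind GA-rich exonic enhancers. TRA2A was at 103, 97.3 and 95.02 CPM in siControl and at 81.6, 83.3 and 75.6 CPM in siNONO. The siNONO libraries were all lower, and the log2 fold change was -0.30 (SE 0.0376, 95% interval -0.38 to -0.22, adjusted p = 3.20e-05, edgeR). TRA2B was at 234, 238 and 223 CPM in siControl and at 196, 200.5 and 176 CPM in siNONO. It was lowest in Set 3 within each group, and the siNONO library was below its siControl partner in every Set (log2 fold change -0.28, SE 0.0317, 95% interval -0.35 to -0.21, adjusted p = 1.41e-05, edgeR). The log2 ratio of TRA2A to TRA2B changed by -0.09, 0.02 and 0.01 in Sets 1, 2 and 3.

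**Figure D2:**
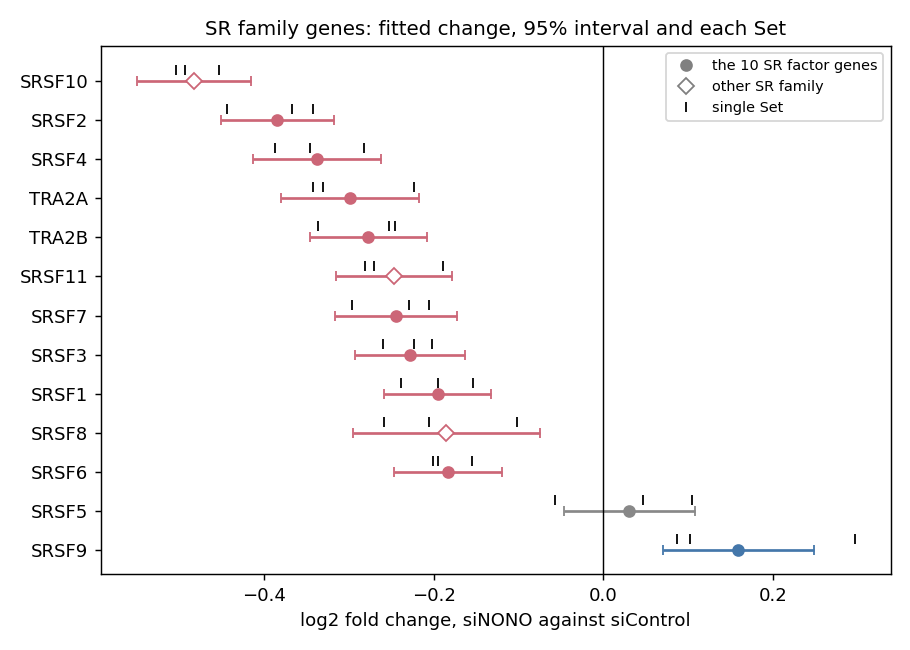
Fitted log2 fold change of siNONO against siControl (horizontal axis) with its 95% interval for the 10 SR factor genes (filled circles) and 3 other SR family genes (open diamonds), and the value of each Set as a tick above it. Red is called lower, blue higher and grey not called; SRSF10 is at -0.48, and SRSF5 and SRSF9 are above 0, though SRSF5 was below 0 on the TPM scale.

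Levels were compared between the genes in TPM. In siControl, SRSF3 was the most abundant at 397 ± 7.85 TPM (SD, n = 3), followed by SRSF2 at 325 ± 14.7, SRSF1 at 287 ± 0.467, SRSF5 at 268 ± 24.5, SRSF9 at 223 ± 12.6 and TRA2B at 213 ± 3.52 TPM. SRSF6 was at 182 ± 6.61, SRSF7 at 173 ± 5.91, TRA2A at 108 ± 4.75 and SRSF4 at 82.2 ± 0.839 TPM (SD, n = 3). The neighbours SRSF1 and SRSF5, SRSF9 and TRA2B, and SRSF6 and SRSF7 overlapped across libraries, and the other neighbours in this order did not. In siNONO, SRSF3 remained first at 326 ± 16.7 TPM and SRSF4 last at 61.1 ± 2.65 TPM. SRSF2 went from the second to the fourth place, at 236 ± 15.4 TPM, and SRSF5 from the fourth to the second, at 252 ± 4.48 TPM. The siNONO libraries of SRSF2 overlapped with those of SRSF5, SRSF1 and SRSF9, and SRSF5 and SRSF1 overlapped each other, while SRSF9 lay below SRSF5 and SRSF1 in every library.

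**Figure D3:**
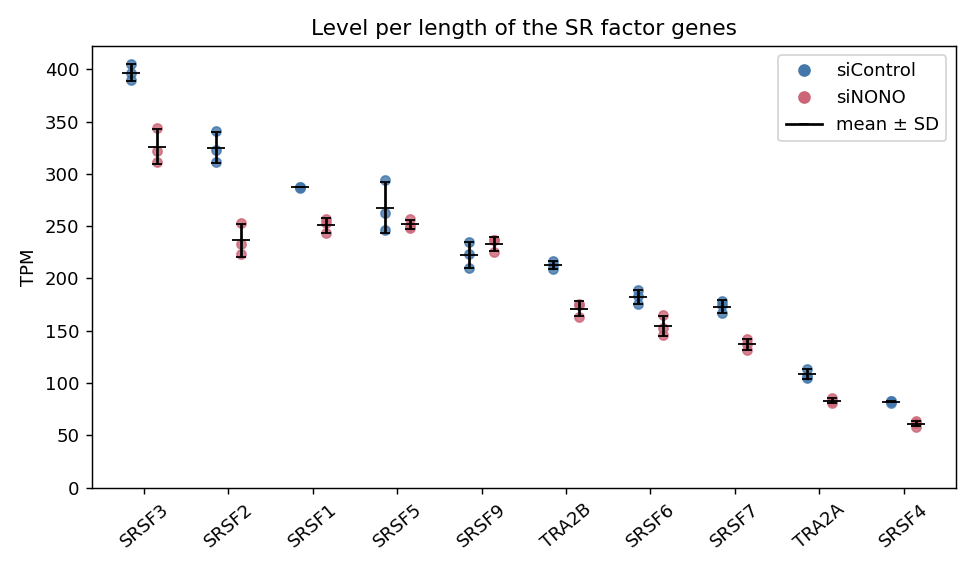
TPM (vertical axis from 0) of the 10 SR factor genes in order of their siControl mean, with each library as a point and the mean ± SD (n = 3) in black. SRSF3 leads in both groups, and in siNONO the levels of SRSF2, SRSF1, SRSF5 and SRSF9 lie close together.

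Summed over the 10 genes, the level was 2263, 2272 and 2242 TPM in siControl and 1895, 1872 and 1946 TPM in siNONO in Sets 1, 2 and 3. The groups were far apart compared with their spread, and the siNONO mean was 84.3% of the siControl mean, or 1904 ± 37.8 against 2259 ± 15.05 TPM (SD, n = 3). The median log2 fold change of all genes tested was -0.07 in TPM (limma on log2(TPM + 1)), against -0.0048 with edgeR on counts. What part this shift has in the lower sum was not tested. The makeup of the pool also differed between the groups. SRSF9 made up 9.85% ± 0.516 of the pool in siControl and 12.2% ± 0.245 in siNONO (SD, n = 3). SRSF2 went from 14.4% ± 0.729 to 12.4% ± 0.559 of the pool, and SRSF5 from 11.8% ± 1.01 to 13.2% ± 0.353. For SRSF5 the shares overlapped between the groups, with the siControl library of Set 2 above the siNONO library of Set 3. The mean level of SRSF5 was 268 TPM in siControl and 252 TPM in siNONO, with overlapping groups. The groups of SRSF9 also overlapped in TPM, so a larger share of the pool does not mean a higher level. The log2 ratio of SRSF9 to SRSF2, a pair picked after their values were seen, rose by 0.45, 0.54 and 0.64 in Sets 1, 2 and 3.

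The isoform mix was examined through the mean transcript length that RSEM gives per gene, which is weighted by the estimated abundance of its transcripts and so moves when longer or shorter isoforms gain ground. The deposited lists hold 8 transcripts of SRSF3, 12 of SRSF7, 16 of TRA2B and 19 of SRSF5, for example, of which 2, 6, 1 and 1 are NMD transcripts by GENCODE version 44. No gene was called for a change in this length among 12164 tested (0% called, limma on the log2 length with the Set as a block), although 1172 had an unadjusted p under 0.05. TRA2B had a mean length of 1743, 1744 and 1711 bases in siControl and of 1717, 1687 and 1643 bases in siNONO. The siNONO library was shorter in each Set, but the groups overlapped, and the change of -2.92% had a 95% interval from -6.23% to 0.509% (adjusted p = 0.556, limma). SRSF1 went from 2716, 2673 and 2582 bases to 2647, 2534 and 2354 bases, a change of -5.57% (95% interval -10.8% to -0.0232%, adjusted p = 0.517, limma), and it was the only member with an unadjusted p under 0.05. For SRSF4 and TRA2A the change was 0.0580% and -0.0985%, with intervals from -2.89% to 3.09% and from -3.77% to 3.71%. SRSF3 and SRSF7, with the longest poison exons shown above, had intervals from -8.23% to 5.40% and from -5.99% to 7.11% around changes of -1.65% and 0.344%. SRSF3 was at 1219, 1228 and 1201 bases in siControl and at 1232, 1234 and 1124 bases in siNONO, with the siNONO library of Set 3 apart from the rest. The test had little power, since on simulated data it recovered 54% of changes of 0.322 on the log2 scale. Those changes were planted only in genes with a spread below the median. The absence of calls therefore says little about the isoform mix. A length also does not say which exon changed.

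**Figure D4:**
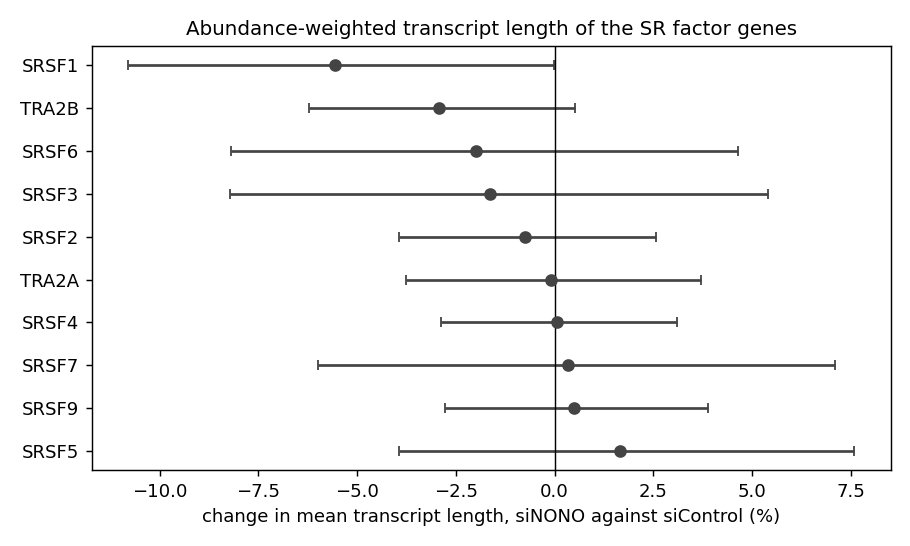
Change in the abundance-weighted mean transcript length of the 10 SR factor genes, siNONO against siControl in percent (horizontal axis), with 95% intervals from limma. The estimates run from -5.57% for SRSF1 to 1.66% for SRSF5.

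NONO was also looked at on this measure. Its mean length was 2149, 2273 and 2002 bases in siControl and 1794, 1844 and 1836 bases in siNONO, with separate groups, a change of -14.7% and an adjusted p of 0.455 by limma.

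Of the 4 other SR family genes, 3 could be tested and all 3 were called lower, against 23.4% of all genes tested. SRSF10, an SR protein that acts as a repressor when dephosphorylated, went from 216, 214 and 190.0 CPM to 158, 151 and 135 CPM and had the lowest log2 fold change of the family, -0.48 (SE 0.0308, 95% interval -0.55 to -0.42, adjusted p = 8.18e-08, edgeR). SRSF11 fell by 0.25 on the log2 scale (SE 0.0315, adjusted p = 3.65e-05) and SRSF8, a gene derived from SRSF2, by 0.19 (SE 0.0507, adjusted p = 0.00945), both by edgeR. SRSF8 was at -0.39 with limma on log2(TPM + 1) (adjusted p = 0.0116). It was not called without the replicate block (log2 fold change -0.19, adjusted p = 0.0599, edgeR), with DESeq2 (-0.19, adjusted p = 0.0929) or without the siControl or the siNONO library of Set 2 (-0.16 and -0.17, adjusted p = 0.0736 and 0.0560, edgeR). For SRSF12 the siControl libraries held 1, 6 and 2 reads and those of siNONO 1, 1 and 3, too few for the test.

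Of the kinases that phosphorylate SR proteins and TNPO3, which imports them into the nucleus, 8 of 10 fell and none rose, against 23.4% called lower and 23.2% called higher over all genes tested. Their median log2 fold change was -0.25, against -0.0048 for all genes tested. The lowest was SRPK2, a cytoplasmic SR protein kinase, at 66.8 ± 1.197 CPM in siControl and 43.2 ± 2.79 CPM in siNONO (SD, n = 3; log2 fold change -0.63, SE 0.0457, adjusted p = 2.58e-07, edgeR). CLK4, a nuclear SR protein kinase, followed at -0.31 (SE 0.0812, adjusted p = 0.00780, edgeR). The smallest of the called drops were those of CLK2 and CLK3, at -0.20 and -0.19. PRPF4B (log2 fold change -0.08) and SRPK3 (0.25) were not called, and of these only SRPK3 rested on few reads.

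Other proteins with RS domains or a place in speckles and early spliceosomes showed 13 lower and 2 higher among 19, where all genes tested had 23.4% lower and 23.2% higher and those as abundant as the SR factor genes 38.3% lower. The median log2 fold change was -0.17, against -0.0048 for all genes tested. RNPS1, which links splicing to the exon junction complex, had the lowest value, from 179 ± 8.53 CPM in siControl to 102 ± 3.46 CPM in siNONO (SD, n = 3; log2 fold change -0.81, SE 0.0317, adjusted p = 1.15e-09, edgeR). SRRM2, a scaffold of nuclear speckles, fell by 0.29 (SE 0.0301, adjusted p = 6.05e-06, edgeR). PNN and ACIN1, which associate with RNPS1 in the PSAP and ASAP complexes, rose by 0.38 (SE 0.0292, adjusted p = 3.86e-07) and 0.19 (SE 0.0305, adjusted p = 0.000252) in the same test. In TPM, PNN went from 109.5 ± 4.90 to 129 ± 7.08 (SD, n = 3), a smaller step than in CPM. ACIN1 was not higher in TPM, at 171 ± 5.88 in siControl and 170.7 ± 4.02 in siNONO (SD, n = 3), and the groups overlapped there.

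The hnRNPs, RNA-binding proteins that often act against SR proteins at exons, had 18 lower and 2 higher of 25, against the same 23.4% and 23.2% of all genes tested and 38.3% lower among the abundant ones. Their median log2 fold change was -0.18, against -0.0048. HNRNPR went from 300.2 ± 8.37 CPM to 199 ± 12.02 CPM (SD, n = 3; log2 fold change -0.59, SE 0.0315, adjusted p = 1.79e-08, edgeR), and PTBP2, a relative of the repressor PTBP1, fell by 0.48 (SE 0.0642, adjusted p = 5.64e-05). HNRNPH2 and HNRNPF rose by 0.29 (SE 0.0409, adjusted p = 7.77e-05) and 0.09 (SE 0.0297, adjusted p = 0.0246) by edgeR, but HNRNPF overlapped between the groups in TPM, at 223 ± 4.33 in siControl and 224 ± 6.76 in siNONO (SD, n = 3).

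Among the factors of NMD and of the exon junction complex, which acts in it, 7 fell, 2 rose and 6 were not called of 15, against 23.4% called lower and 23.2% called higher over all genes tested. The median log2 fold change was -0.08, against -0.0048. CASC3, a component of the exon junction complex, fell by 0.65 (SE 0.0358, adjusted p = 2.53e-08, edgeR) and SMG9, a subunit of the SMG1 kinase complex, by 0.30 (SE 0.0457, adjusted p = 0.000168, edgeR). UPF3B, which bridges the exon junction complex and UPF2, rose from 14.7 ± 1.18 to 22.9 ± 1.75 CPM (SD, n = 3; log2 fold change 0.64, SE 0.0595, adjusted p = 2.40e-06, edgeR). RBM8A, another component of that complex, rose by 0.12 in CPM (SE 0.0354, adjusted p = 0.0168, edgeR), while in TPM it was at 165 ± 5.08 in siControl and 160.2 ± 1.35 in siNONO (SD, n = 3), lower and with overlapping groups. The number of 9 called genes in this list depended on the libraries, and it was 4 or 5 without either library of Set 1 or of Set 2.

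Genes with the most similar pattern were sought for each SR factor gene among 6585 others whose average log2 CPM was 5 or more, by Pearson's r of log2 CPM over the 6 libraries. The best match had an r from 0.973 for SRSF5 to 0.9997 for TRA2B, and with 6 libraries that differ by siRNA, Set and depth such values are only a description. SRSF2 was most like UBE4B, SRSF3 like TP53BP1, SRSF4 like CKAP2L, SRSF6 like IDE, SRSF7 like IFNGR2, SRSF1 like KLF10, TRA2A like MSL2 and TRA2B like FER, all of them lower in siNONO. SRSF9 was most like COX6C, which rose by 0.14 on the log2 scale (adjusted p = 0.0216, edgeR), and SRSF5 like DBI, which was not called (log2 fold change 0.05, adjusted p = 0.241, edgeR). Among the 10 genes, SRSF1 and TRA2B had the highest r, 0.991, and SRSF3 and SRSF9 the lowest, -0.855, over the same 6 libraries.

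Markers of the labelled cell type were present. The epithelial genes EPCAM, KRT8, KRT18, KRT19, CDH1 and CLDN4 were all expressed, from 33.1 TPM for CDH1 to 1281 TPM for KRT8 in single libraries. EPCAM (log2 fold change 0.32) and KRT19 (0.14) were called higher in siNONO, KRT19 with overlapping groups in TPM, and the other 4 were not called. PTPRC, the pan-leukocyte marker, had 1 count in a single library and 0 in the other 5, CD3E likewise, and HBB at most 2, while LYZ reached 15 counts. COL1A1 was at 16.2 to 19.0 TPM with a log2 fold change of 0.02, and COL3A1 and VWF stayed under 0.5 TPM. COL1A1, COL3A1 and VWF were tested and not called, and no blood cell marker had enough counts for the test.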

How the data were processed

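RNA-seq of 3 siControl and 3 siNONO libraries of HCT116 was used. Trimming by the authors used sickle, alignment used STAR and quantification used RSEM (version 1.3.1), with GRCh37 and GENCODE version 34. They deposited per library the estimated count, which is not normalized, the TPM, which RSEM scales for length and library size, and the mean transcript length of each of 62492 genes. FPKM values were not used here.

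Estimated counts were rounded and tested with edgeR (version 4.0.16, quasi-likelihood F-test in the form of edgeR 3), filterByExpr, TMM and the Set as a block, since the study adjusted for batch. The Set was taken as that batch, and what the batches were is not given in the sources used here. Adjustment was by Benjamini-Hochberg over 17000 genes. Mean lengths were tested with limma (version 3.58.1) on log2 values of genes with a TPM of at least 1 in all libraries. Intervals are 95% intervals of the fits. Symbols were matched by Ensembl ID. The genome and the later annotation, GENCODE version 44, are on the same build as the deposited files.

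The Set numbers were taken to pair the libraries. Deviations from group means correlated at 0.428, 0.257 and 0.509 within Sets 1, 2 and 3 over 10814 genes. Between Sets 1 and 2 the values were 0.159 and 0.151, and between Set 3 and the others they ran from -0.444 to -0.264. Replicates differed by more than counting noise in every pair. The tests were tried on simulated data. For siNONO against siControl, 97% of 100 changes of 0.5 on the log2 scale were recovered among 16797 genes. These changes were planted only in well-counted genes, with the same dispersion for all genes and no Set effect. They were larger than the change of any SR factor gene, so recovery of changes of that size was not tested. For lengths, 54% of 200 changes of 0.322 on the log2 scale were recovered among 12164 genes. The changed genes were drawn only from those with a spread below the median, and no Set effect was simulated.

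The 10 genes and all lists were chosen with earlier results of these data known. Named were NONO, the 10 genes, the other SR family, the 2 highest and 2 lowest called genes of each list and the gene most alike to each member. PECAM1 was in the marker list but could not be matched. Another marker of that list is not reported here. Alternatives were other scalings, filters and forms of the test, no block, DESeq2 (version 1.42.0), limma on log2(TPM + 1) and log2(TPM + 0.1), effective length, other TPM minimums and each library left out.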

Additional observations from a re-analysis of the deposited data

How the results depend on the processing

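The 8 SR factor genes that fell did so under all 16 alternatives, and the drop of NONO ran from -2.42 to -2.22. SRSF9 was called under 14 of them, and the count of SR factor genes that rose was 0 with limma on log2(TPM + 1) or log2(TPM + 0.1), where its log2 fold change was 0.07 (adjusted p-values of 0.305 and 0.307). On those scales the median of all genes was -0.07 and -0.09. SRSF5 was reversed on both, at -0.0842 and -0.0845 (adjusted p-values over its alternatives from 0.158 to 0.991), and ran from -0.0035 to 0.0877 when a library was left out. The total of changed genes, 7924, became 5227 with DESeq2, of which 2612 were higher and 2615 lower. It became 5257 with limma on log2(TPM + 1) (1643 higher, 3614 lower) and 5250 with log2(TPM + 0.1) (1638 higher, 3612 lower). The share of calls that were higher was 49.7% with edgeR and 31.3% and 31.2% on the TPM scales. The cause was not tested. The 9 called NMD and exon junction factors became 4 with no replicate block, 4 with DESeq2, 5 with no filter on low counts and 12 with library size alone, and 4 to 10 when a library was left out.

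No length change was called under any of 10 alternatives. The length change of SRSF4 was reversed with effective length, at -0.0014 on the log2 scale. Leaving out a library gave -0.0439 to 0.0114 for SRSF3, -0.0031 to 0.0045 for SRSF4, -0.0038 to 0.0388 for SRSF5, -0.0532 to 0.0026 for SRSF6, -0.0174 to 0.0371 for SRSF7, -0.0022 to 0.0120 for SRSF9 and -0.0148 to 0.0065 for TRA2A, all with changes of sign. Leaving out a library also leaves its Set partner without a match, so those fits rest on 2 Sets. With no replicate block, 6164 genes in all and 9 SR factor genes were called.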
